A study of Mus musculus with 4 samples.

Results

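Described here are 9 genes at 4 places in the mouse genome, in double-positive (DP) thymocytes, which carry both CD4 and CD8a, from mice with a Cxxc1 deletion and from controls. The places hold Pgpep1l with Gm16157 and Gm16158, Myo7a with Capn5, Cyth4 with Elfn2, and Gm4759 with Gm8995. These genes were chosen because neighbours at each place were higher in the knockout libraries, so their difference between genotypes is given as a description with no p-value, and counts of calls among them carry no weight as a test. All 9 are among the 35976 gene symbols counted. Knockout (KO) mice carried Cxxc1 F/F with Lck-cre, and control mice carried Cxxc1 +/+ with the same Lck-cre transgene, whose Lck promoter is active in T-lineage cells. The age and strain of the mice are not stated in the labels. The thymocytes of both genotypes were sorted as positive for CD24, CD4 and CD8a and negative for TCRb, and there were 2 bulk RNA-seq libraries per genotype. The labels do not tie the libraries to separate animals, and the p-values given for other genes therefore reflect only the spread among these samples, which could be technical.

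The Cxxc1 protein binds unmethylated CG dinucleotides as a subunit of SETD1 complexes, the enzymes that place the lysine 4 methyl mark on histone H3 at active promoters. Neighbouring genes can share regulatory elements, a chromatin domain or overlapping transcripts, and counts made without regard to strand can assign the reads of a gene to its overlapping partner. The strand setting of the counting is unknown here.

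Levels are in CPM, a gene's counts relative to the library's total, with totals scaled by edgeR's TMM factors, and each log2 fold change (KO over control) is followed by its standard error from edgeR. Total counts were 36243182 and 33544428 in KO 1 and KO 2, and 12150508 and 34820446 in control 1 and control 2. Cxxc1 itself had 35.7 and 39.4 CPM in KO 1 and KO 2, against 111 and 53.5 CPM in control 1 and control 2. The summed level of 12 DP and T-cell markers was 6010 and 8800 CPM in the KO libraries, against 12600 and 16100 CPM in the control libraries, and Cd4, Cd8a and Dntt, 3 of the 12, fell in the KO. Of 8 lists for other cell types, the erythroid one (6 genes) summed to 38.0 and 26.2 CPM in the KO libraries, against 8.66 and 14.0 CPM in the control libraries. The haemoglobin genes Hba-a1, Hba-a2, Hbb-bs and Hbb-bt were at 0 in both control libraries, and Hba-a1, at 14.6 and 6.49 CPM in the KO libraries, was the 1 gene of the 8 lists that was called. The epithelial one (6 genes) summed to 19.6 and 20.5 CPM in the KO libraries, against 5.21 and 10.7 CPM in the control libraries. Epcam and Cdh1 made up most of each sum except in control 1, where they had 1.09 and 0.0841 CPM. The epithelial markers Krt5, Krt8, Foxn1 and Psmb11 stood between 0 and 0.172 CPM in the KO libraries, against 0.0577 to 1.60 CPM in the control libraries. The dendritic list (5 genes) summed to 3.73 and 1.57 CPM in the KO libraries, against 6.89 and 5.05 CPM in the control libraries. In the lists for B cells, myeloid cells, NK and innate lymphoid cells, endothelial and mesenchymal cells and platelets, the summed levels of the genotypes overlapped. Gata3 made up most of the NK and innate lymphoid sum, and Pecam1 most of the endothelial and mesenchymal sum. In those lists, Klrb1c had 0.689 and 0.478 CPM in the KO libraries, against 5.38 and 1.85 CPM in the control libraries. Kdr had 0.201 and 0.197 CPM in the KO libraries, against 1.6 and 1.38 CPM in the control libraries. Of the platelet genes, Pf4 and Ppbp were at 0 in the KO libraries only, while Gp1ba was higher in both KO libraries. Whether these differences bear on the levels that follow was not tested. In bulk samples, fewer cells of a type and less RNA per cell cannot be told apart.

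All 4 places lay on chromosomes 7 and 15 (RefSeq spans, build GRCm38.p6). The order and strand of the genes differed between the places. On the minus strand of chromosome 7 stood Gm16158 (68337460 to 68353219), Gm16157 (68266339 to 68276594) and Pgpep1l (68235521 to 68264484), in the direction of transcription. Gm16157 ended 1854 bases before the start of Pgpep1l, and Gm16158 lay 60865 bases from Gm16157. Those 3 genes are not an unbroken row, since Fam169b (68273839 to 68363089, plus strand) lies between Gm16157 and Gm16158 and overlaps both. Capn5 (98121559 to 98178946) and Myo7a (98051054 to 98119522) were also on the minus strand of chromosome 7, with Capn5 ending 2036 bases before Myo7a starts. Cyth4 (chromosome 15, 78597047 to 78622019, plus strand) and Elfn2 (78667333 to 78718771, minus strand) pointed toward each other across 45313 bases. Gm8995 (chromosome 7, 106502153 to 106529202) and Gm4759 (106421550 to 106441073) were on 1 strand, minus, with 61079 bases between them.

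Promoter sequences, 250 bases before to 50 bases after an annotated start, were found for 6 of the 9 genes in the RefSeq table (GRCm38.p6). Capn5, Gm4759 and Gm8995 had no entry. The Pgpep1l window lies inside the RefSeq span given above, so it is not upstream of the start from which the gap to Gm16157 was measured. The promoters of 5 genes are shown, at least 1 from each place with an entry, to let their CG content be seen, with each CG, the dinucleotide that Cxxc1 protein binds, in capitals. They are written 5′ to 3′ on the strand of the gene.
Pgpep1l, chr7:68264184-68264483, minus strand: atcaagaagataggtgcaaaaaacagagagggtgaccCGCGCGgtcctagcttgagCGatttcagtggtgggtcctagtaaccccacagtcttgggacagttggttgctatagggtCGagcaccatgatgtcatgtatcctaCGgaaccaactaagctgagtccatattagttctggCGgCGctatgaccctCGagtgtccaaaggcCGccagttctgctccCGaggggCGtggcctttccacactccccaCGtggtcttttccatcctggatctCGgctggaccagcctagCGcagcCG
Gm16157, chr7:68276545-68276844, minus strand: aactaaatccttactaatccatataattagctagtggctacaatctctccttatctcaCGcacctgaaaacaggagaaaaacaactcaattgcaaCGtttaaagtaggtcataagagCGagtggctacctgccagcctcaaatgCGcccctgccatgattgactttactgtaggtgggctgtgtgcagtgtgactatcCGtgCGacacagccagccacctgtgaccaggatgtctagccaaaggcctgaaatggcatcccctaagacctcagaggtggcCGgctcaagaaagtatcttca
Myo7a, chr7:98119444-98119743, minus strand: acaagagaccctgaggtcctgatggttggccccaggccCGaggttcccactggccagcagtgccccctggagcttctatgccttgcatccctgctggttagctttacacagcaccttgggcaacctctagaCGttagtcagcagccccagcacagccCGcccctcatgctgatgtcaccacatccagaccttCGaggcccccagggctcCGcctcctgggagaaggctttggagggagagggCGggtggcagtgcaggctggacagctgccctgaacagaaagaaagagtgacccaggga
Cyth4, chr15:78596797-78597096, plus strand: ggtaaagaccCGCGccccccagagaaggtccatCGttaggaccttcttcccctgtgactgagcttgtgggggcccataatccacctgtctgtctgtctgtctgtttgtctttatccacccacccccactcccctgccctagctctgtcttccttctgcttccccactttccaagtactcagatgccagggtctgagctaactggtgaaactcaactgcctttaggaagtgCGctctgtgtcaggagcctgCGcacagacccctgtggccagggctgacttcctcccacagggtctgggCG
Elfn2, chr15:78718722-78719021, minus strand: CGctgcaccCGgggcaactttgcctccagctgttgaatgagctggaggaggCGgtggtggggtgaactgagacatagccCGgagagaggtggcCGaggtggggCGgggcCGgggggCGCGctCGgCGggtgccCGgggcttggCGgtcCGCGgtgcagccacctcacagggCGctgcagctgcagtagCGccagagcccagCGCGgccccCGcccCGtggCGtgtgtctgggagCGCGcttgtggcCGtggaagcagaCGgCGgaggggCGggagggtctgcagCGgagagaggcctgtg

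The CG content could be compared within 2 of the 4 places. The Elfn2 promoter held 29 CG, a count reached by 12.9% of 32841 RefSeq promoters of this length, while the Cyth4 promoter held 6, a count reached by 56.4%. Pgpep1l held 16 (reached by 33.0%), and the upstream start of Gm16157 held 7 (52.1%). Gm16158, whose sequence is not shown, held 18 (29.7%). Both annotated starts of Myo7a held 6 (56.4%). Over all promoters the median was 7 CG, and 94.6% held at least 1. CG reads the same on both strands, so each is counted once, and a count says nothing of methylation or of binding.

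**Figure D1:**
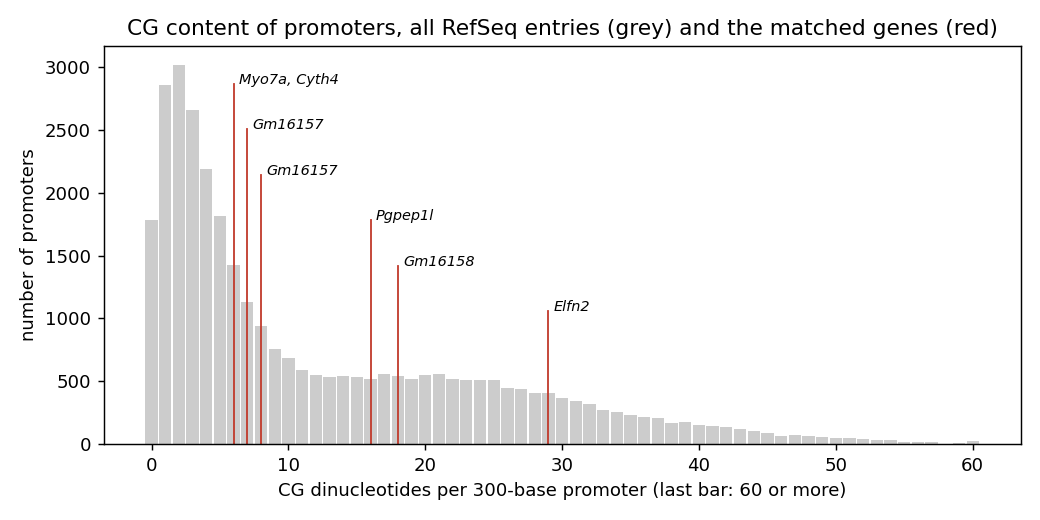
Number of CG dinucleotides per 300-base RefSeq promoter (x axis) against the number of promoters (y axis), with grey bars for all 32841 promoters and red lines, of no meaning in height, for the annotated starts of 6 of the genes. Cyth4 and Myo7a stand at 6, near the median of 7, and Elfn2 at 29.

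Pgpep1l and the noncoding genes Gm16157 and Gm16158 were low in control cells and higher in both KO libraries. Pgpep1l is named for its likeness to pyroglutamyl peptidase I, an enzyme that removes an amino-terminal pyroglutamate from peptides. It had 39.0 and 27.6 CPM in KO 1 and KO 2, against 2.27 and 1.27 CPM in control 1 and control 2, from 1359 and 984 counts against 27 and 44 counts. The log2 fold change was 4.29 ± 0.45. Gm16157, annotated as a long noncoding RNA gene, had 19.5 and 21.4 CPM in the KO libraries, against 2.61 and 3.55 CPM in the control libraries. Its log2 fold change was 2.72 ± 0.42. Gm16158, also a long noncoding RNA gene, had 47.0 and 55.8 CPM in the KO libraries, against 10.8 and 16.4 CPM in the control libraries, a log2 fold change of 1.91 ± 0.32. In none of the 3 did the genotypes overlap.

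**Figure D2:**
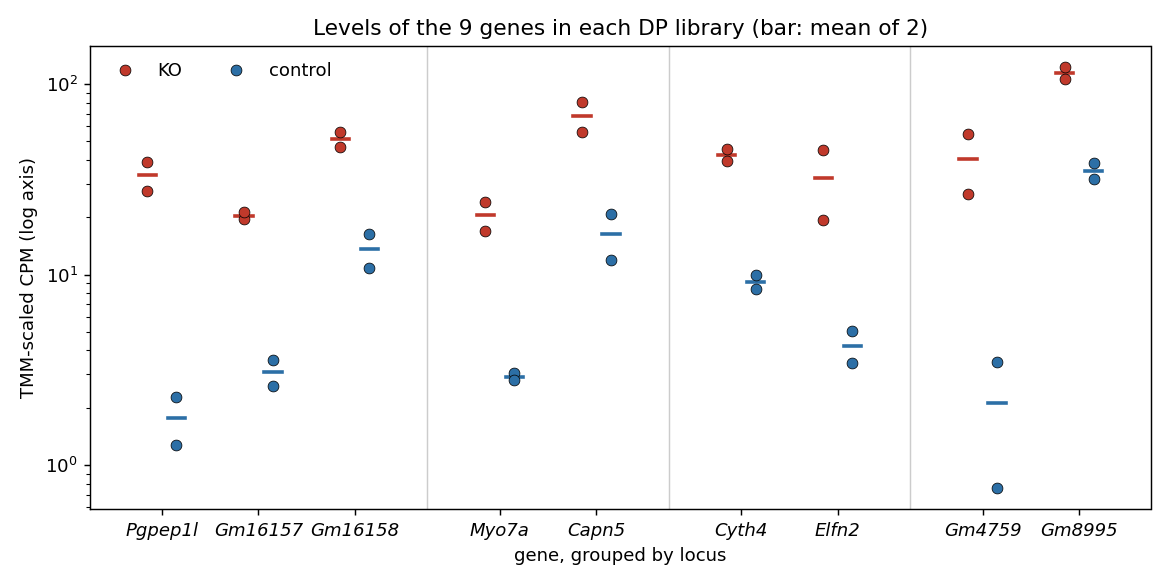
TMM-scaled CPM on a log axis (y axis) for each of the 9 genes (x axis, grouped by place), with KO libraries in red on the left and control libraries in blue on the right; each point is a library and each bar the mean of 2. In all 9 genes both KO points lie above both control points, with the widest spread in Gm4759.

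The exons of the noncoding genes overlap those of Fam169b on the opposite strand. By GENCODE M21 exons, 134 bases of Gm16158 (16.7% of its exons) and 78 bases of Gm16157 (5.82%) lie in Fam169b exons. Fam169b had 130 and 157 CPM in the KO libraries, against 50.9 and 76 CPM in the control libraries. Its log2 fold change was 1.17 ± 0.26 (edgeR, adjusted p = 0.105), and it passed the threshold in 4 of 10 alternative settings. Without strand, reads of Fam169b and of Gm16157 or Gm16158 in the shared bases cannot be told apart. No sequence of 50 bases from Pgpep1l transcripts occurred in the transcripts of any other GENCODE gene.

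On the other side of Pgpep1l, tail to tail at a distance of 1852 bases, lies Igf1r, the receptor gene for insulin-like growth factor 1. Igf1r had 232 and 148 CPM in the KO libraries, against 113 and 115 CPM in the control libraries. The genotypes did not overlap, but the log2 fold change of 0.74 ± 0.26 did not pass the test (edgeR, adjusted p = 0.258). Farther out on that side, 404449 bases from Pgpep1l, the noncoding gene Gm34350 was low and went the other way. It had 1 and 0 counts in the KO libraries, against 12 and 90 counts in the control libraries (log2 fold change -6.62 ± 1.93, edgeR, adjusted p = 0.188). Arrdc4, an alpha-arrestin gene whose product limits glucose uptake, is the next tested gene beyond Gm16158, 383774 bases away. It rose to 26.3 and 42.4 CPM in the KO libraries, against 3.19 and 6.09 CPM in the control libraries (log2 fold change 2.86 ± 0.44, edgeR, adjusted p = 0.0355). That call ended without KO replicate 1, where the log2 fold change was 3.20, and without KO replicate 2, where it was 2.48.

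Myo7a and Capn5 were both higher in the KO. Myo7a encodes myosin VIIA, an actin-based motor known for its work in the hair cells of the inner ear and in the retina. It had 24.0 and 17.0 CPM in KO 1 and KO 2, against 3.03 and 2.80 CPM in control 1 and control 2, a log2 fold change of 2.82 ± 0.43. The control libraries differed by little, and both KO libraries stood well above them. Capn5 encodes calpain 5, a calcium-dependent cysteine protease. It had 80.2 and 56.1 CPM in the KO libraries, against 12 and 20.8 CPM in the control libraries, a log2 fold change of 2.04 ± 0.35.

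Per kilobase of GENCODE exon, Capn5 was the more abundant of the pair in every library. In RPKM, which divides CPM by exon length, Capn5 had levels of 14.6 and 10.2 in the KO libraries, against 2.19 and 3.79 in the control libraries. Myo7a had levels of 2.80 and 1.98 in the KO libraries, against 0.353 and 0.327 in the control libraries. Within a library, where scaling plays no part, there were 30.0 and 30.3 Myo7a counts per 100 Capn5 counts in KO 1 and KO 2, against 25.2 and 13.5 in control 1 and control 2. The share was nearly equal in the KO libraries and differed between the control libraries.

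Of the genes around this pair, none was called by edgeR. Gm16938, a long noncoding RNA gene on the opposite strand, overlaps Capn5 by 1081 bases with no shared exon bases. It had 4.19 and 4.1 CPM in the KO libraries, against 0.841 and 1.3 CPM in the control libraries. The genotypes did not overlap (log2 fold change 1.93 ± 0.81, edgeR, adjusted p = 0.337). Omp, the olfactory marker protein gene, lies inside Capn5 on its strand with no shared exon bases, and had 7.03 and 3.60 CPM in the KO libraries, against 3.78 and 0.635 CPM in the control libraries, where the genotypes overlap. Its log2 fold change of 1.31 ± 0.89 became 3.06 when control replicate 1 was left out and 0.49 when control replicate 2 was. Acer3, an alkaline ceramidase gene 34861 bases beyond Capn5, had 13.6 and 10.1 CPM in the KO libraries, against 6.73 and 7.99 CPM in the control libraries (log2 fold change 0.68 ± 0.42, edgeR, adjusted p = 0.533). The nearest gene on the other side, Gdpd4, lay 1390 bases from Myo7a and was low. It had 0.201 and 0.0562 CPM in the KO libraries, against 0.42 and 1.64 CPM in the control libraries. Its log2 fold change was -2.98 ± 1.83 (edgeR, adjusted p = 0.526). Beyond it, 138672 bases from Myo7a, Pak1, which encodes a kinase activated by Rac and Cdc42, had 0.36 ± 0.27 (edgeR, adjusted p = 0.629). Aqp11 and Clns1a, farther out on that side, had log2 fold changes of -0.02 ± 0.30 and 0.26 ± 0.22 (edgeR, adjusted p = 0.984 and 0.674).

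Cyth4 and Elfn2, which face each other, were both higher in the KO, and their KO libraries were spread differently. Cyth4 encodes cytohesin 4, an exchange factor for ARF GTPases found mainly in blood cells. It had 39.6 and 45.6 CPM in KO 1 and KO 2, against 9.92 and 8.40 CPM in control 1 and control 2, a log2 fold change of 2.22 ± 0.31. Elfn2 encodes a leucine-rich-repeat membrane protein known from neurons, which inhibits protein phosphatase 1. It had 45.1 and 19.4 CPM in the KO libraries, against 5.04 and 3.43 CPM in the control libraries, a log2 fold change of 2.95 ± 0.48, which was 2.24 without KO replicate 1. Cyth4 was close to level between the KO libraries, while Elfn2 was far higher in KO 1. There were 87.7 and 234 Cyth4 counts per 100 Elfn2 counts in KO 1 and KO 2, against 197 and 245 in control 1 and control 2. KO 1 alone stood apart in that share. On the opposite strand, 1700041B01Rik shares 266 bases with Elfn2 exons (3.28% of them).

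The 5 nearest counted genes on the Cyth4 side were all tested, had log2 fold changes between -1.37 and 1.13, and were not called by edgeR. Beyond Elfn2 lie Mfng and Card10. Mfng encodes manic fringe, a glycosyltransferase that modifies Notch receptors, and had 18.9 and 13.5 CPM in the KO libraries, against 7.65 and 10.7 CPM in the control libraries (log2 fold change 0.81 ± 0.40, edgeR, adjusted p = 0.416). Card10 encodes a scaffold of NF-kB signalling. It had 17.3 and 12.1 CPM in the KO libraries, against 2.77 and 2.51 CPM in the control libraries (2.48 ± 0.47 on the log2 scale, edgeR, adjusted p = 0.0676). Card10 missed the threshold there and passed it in 6 of 10 alternatives.

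**Figure D3:**
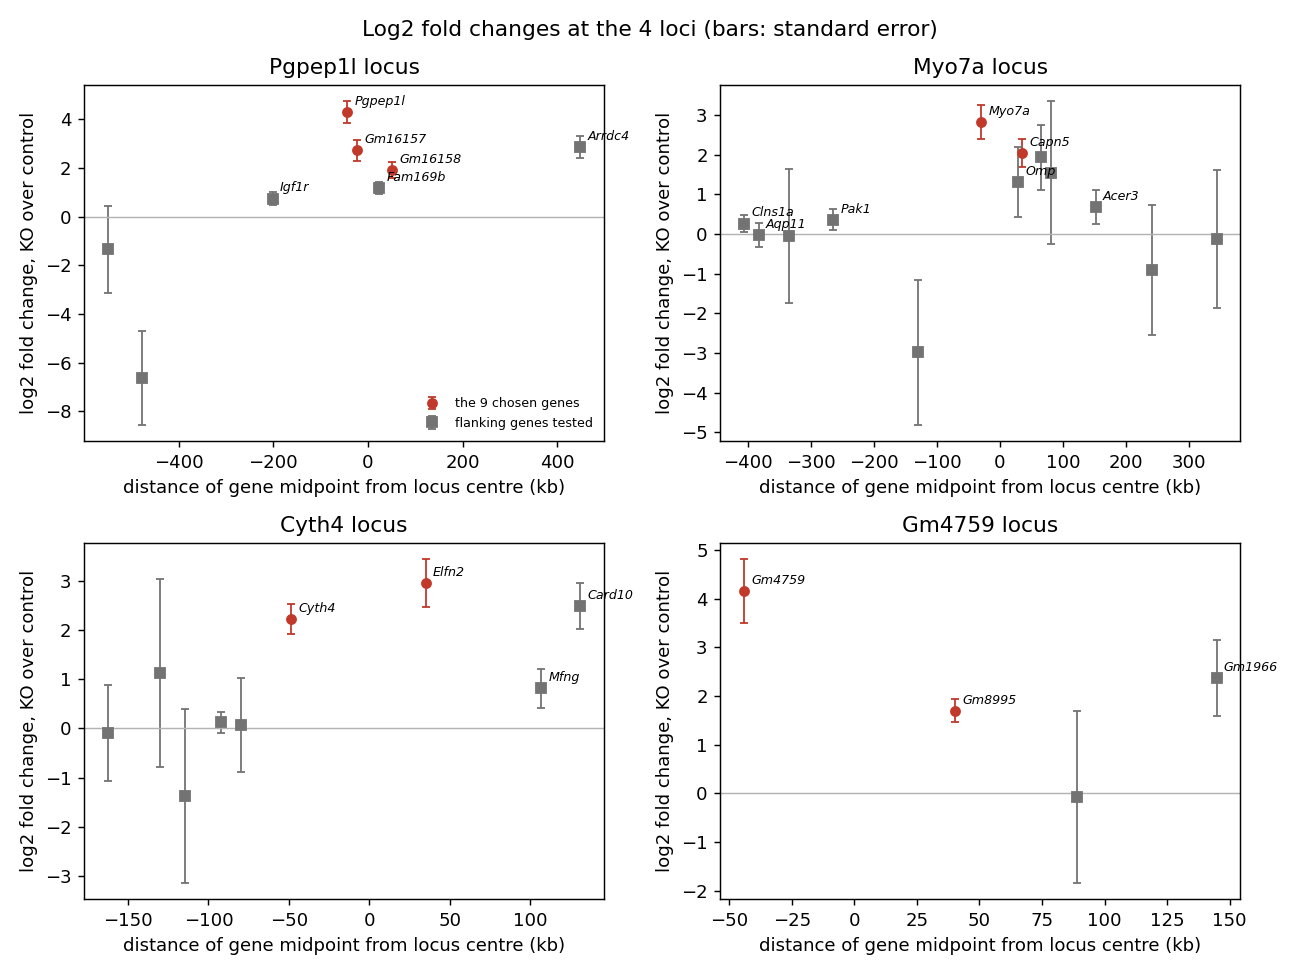
Log2 fold change, KO over control, with its standard error (y axis) against the distance of the gene's midpoint from the centre of the place in kilobases (x axis), in 4 panels. Red circles are the 9 chosen genes and grey squares the tested flanking genes, of which those at a KO mean of 5 CPM or more are named, except 1; Arrdc4 and Card10 stand near the red points, while Aqp11 lies near 0.

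Gm4759 and Gm8995 stand in a stretch of chromosome 7 that also holds Gvin1, the gene for an interferon-inducible very large GTPase, and several of its pseudogenes. Gm4759, annotated as a transcribed pseudogene, had 26.4 and 54.8 CPM in KO 1 and KO 2, against 0.757 and 3.46 CPM in control 1 and control 2. These levels came from 920 and 1950 counts in the KO libraries, against 9 and 120 counts in the control libraries. Its log2 fold change of 4.16 ± 0.65 had the largest standard error of the 9. Gm8995, a miscellaneous RNA in RefSeq, had 106 and 123 CPM in the KO libraries, against 31.7 and 38.5 CPM in the control libraries. It was the most abundant of the 9 by CPM and had a log2 fold change of 1.70 ± 0.24. There were 25 and 44.5 Gm4759 counts per 100 Gm8995 counts in KO 1 and KO 2, against 2.39 and 8.98 in control 1 and control 2. That share was higher in both KO libraries than in either control library.

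Reads of this gene family can match several copies. Of the 50-base stretches in GENCODE transcripts of Gm8995, 18.6% also occurred in transcripts of another gene, most often Gm8979 (8.65%), and for Gm4759 the share was 2.51%. The GENCODE and RefSeq spans of both genes differ, and the counting of reads with several matches is unknown here, which leaves both levels uncertain. Gvin1 had 0.287 and 0.0281 CPM in the KO libraries, against 0.168 and 0.0577 CPM in the control libraries. That was 10 counts in KO 1 and fewer than 3 counts in each other library. Gm1966, a gene of the family 66346 bases beyond Gm8995, protein-coding by RefSeq and a pseudogene by GENCODE, had 8.41 and 12.2 CPM in the KO libraries, against 0.504 and 3.29 CPM in the control libraries. Its log2 fold change was 2.37 ± 0.78 (edgeR, adjusted p = 0.228), and it passed the threshold in 3 of 10 alternatives. It depended on the control libraries, being 1.65 without control replicate 1 and 4.34 without control replicate 2.

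All 9 genes were called higher in edgeR's quasi-likelihood test, where 0.270% of the 20389 tested genes were. In all 9, both KO libraries lay above both control libraries, as they did in 22.8% of tested genes. Since the choice used these values, nothing is read from either count. Without KO replicate 1, where 0.0343% of genes were called higher, 0 of the 9 were called. Without KO replicate 2, where 0.231% were, the 3 called were Pgpep1l, Elfn2 and Capn5. DESeq2, which called 2.21% of genes higher and 2.53% lower, called all 9 higher. The log2 fold change of each gene stayed above 0 in all 10 alternatives. With both KO libraries above both control libraries, leaving out a library could not reverse it. The value for Gm4759 ranged most, being 5.74 without control replicate 2 and 3.55 without control replicate 1.

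Differences between libraries of 1 genotype are not the contrast that chose the genes, but they are not independent of it. All 9 were called, and a call weighs the fold change against the spread within genotypes. The percentiles below are of genes not chosen in that way. Myo7a and Capn5 differed between KO 1 and KO 2 by almost the same amount, with log2 ratios of 0.50 and 0.52, a value that Pgpep1l at another place also had. Between control 1 and control 2 they parted, at 0.11 for Myo7a and -0.79 for Capn5. Cyth4 and Elfn2 had log2 ratios of -0.20 and 1.21 between the KO libraries, and 0.24 and 0.56 between the control libraries. Pgpep1l, at 0.50 in the KO pair and 0.84 in the control pair, was higher in the first library of both genotypes. Gm16157 and Gm16158 were lower in the first library of both, at -0.13 and -0.25 in the KO pair and -0.45 and -0.60 in the control pair. Gm4759 and Gm8995 had -1.05 and -0.22 in the KO pair, and -2.19 and -0.28 in the control pair. Among 9253 tested genes at a mean of 10 CPM or more, the 5th and 95th percentiles were -0.72 and 0.84 for the KO pair, and -0.85 and 0.87 for the control pair. Elfn2 and Gm4759 lay outside that range in the KO pair, and Gm4759 in the control pair. Over all 16981 tested genes above 0 in each library, low ones included, the same percentiles were -1.97 and 1.26 for the KO pair, and -1.78 and 2.07 for the control pair. Within that wider range lay Elfn2 and Gm4759 in the KO pair, while Gm4759, at 9 and 120 counts, was outside it in the control pair. With 1 ratio per genotype these values have no replicate.

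**Figure D4:**
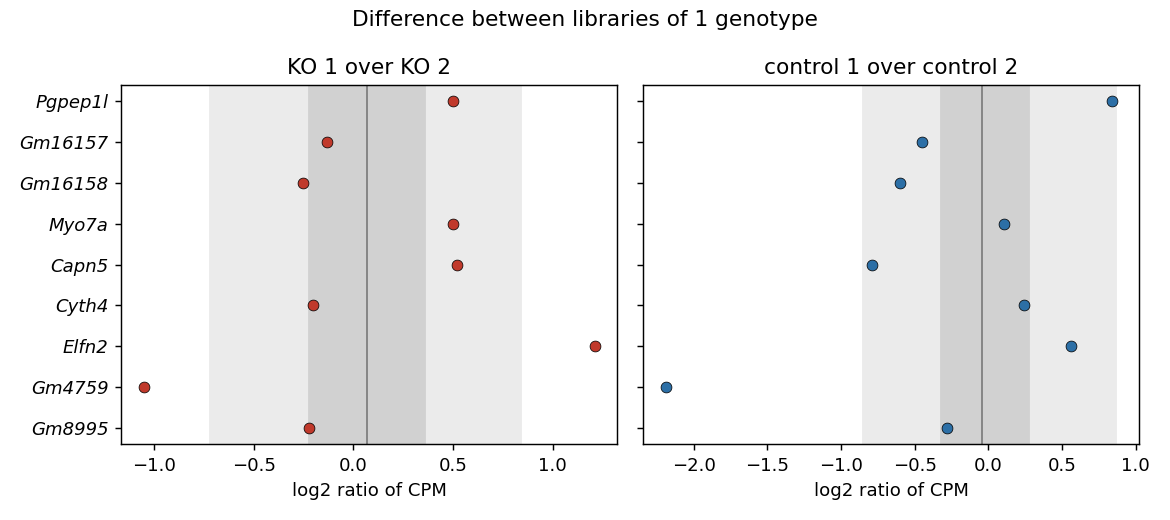
Log2 ratio of CPM between the libraries of 1 genotype (x axis) for each of the 9 genes (y axis), KO 1 over KO 2 on the left and control 1 over control 2 on the right. Light and dark bands span the 5th to 95th and the 25th to 75th percentiles of 9253 tested genes at a mean of 10 CPM or more; Myo7a and Capn5 coincide on the left and not on the right.

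By pattern over the 4 libraries, the nearest genes were sought for 1 gene per place, Pgpep1l, Myo7a, Cyth4 and Gm4759, and none of the 3 nearest to each was a neighbour from its place. Likeness was the distance between log2(CPM + 0.5) values centred on the gene's own mean, over 12410 tested genes of at least 1 CPM. Symbols made of Gm and digits, starting with LOC, ending in Rik or containing -ps were also left out. Nearest to Pgpep1l were Il2ra (0.55), Rhoj (0.62) and Unc93b1 (0.69), against 1.60 for Gm16157. Nearest to Myo7a were Gpr25 (0.23), G6pc3 (0.25) and Fggy (0.29), against 0.82 for Capn5, with 71 genes closer than Capn5. Nearest to Cyth4 were Sgms1 (0.13), Egf (0.18) and H2-Ob (0.19), against 1.14 for Elfn2, with 481 genes closer than Elfn2. Nearest to Gm4759 were Ly6c1 (0.50), Bicd1 (1.04) and Abhd14b (1.26), against 2.67 for Gm8995, with 191 genes closer. These distances rest on 4 libraries, include the difference between genotypes that chose the genes, and were read as a description.

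Around the 4 places, the 5 nearest counted genes on each side and those inside gave 44 flanking genes, of which 25 had enough counts to be tested. Of the 25, 1 was called higher, Arrdc4, and 0 were called lower by edgeR, where 0.270% and 0.181% of all tested genes were called higher and lower. At an unadjusted p below 0.05, which 13.9% of all tested genes reached, 6 of the 25 were higher and 1 lower. DESeq2 called 3 higher and 1 lower. In 11 of the 25 (44.0%), both KO libraries lay above both control libraries, beside the 22.8% of all tested genes. The median log2 fold change was 0.26 for the 25 and -0.04 for all tested genes.

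Among genes related to these by function, none of 7 lists had a member called by edgeR. The median log2 fold change of all tested genes, -0.04, stands beside each list's median, and more of those genes lay below 0 than above. An unadjusted p below 0.05, in either direction, was reached by 13.9% of all tested genes. DESeq2 called 2.21% higher and 2.53% lower. The list of Usher syndrome genes, other myosin VIIA partners and related myosins (13 tested of 14) had a median of -1.51, and 10 of the 13 values were below 0. Except for Cdh23, Whrn, Rab27a and Myo5a, its genes stayed under 5 CPM in every library. At an unadjusted p below 0.05, 0 of them were higher and 3 lower, and DESeq2 called 1 lower. Whrn, which encodes whirlin, a scaffold of the hair-cell stereocilia, had 87.2 and 94.1 CPM in the KO libraries, against 183 and 177 CPM in the control libraries (-0.99 ± 0.21, edgeR, adjusted p = 0.0943). The motor gene Myo5a had 114 and 75.6 CPM in the KO libraries, against 59.4 and 74.8 CPM in the control libraries (0.49 ± 0.27, edgeR, adjusted p = 0.464).

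The other calpain genes and their inhibitor (13 tested of 15) had a median of -0.11, with 2 higher and 1 lower at an unadjusted p below 0.05, and DESeq2 called 0. Capn7 had 0.26 ± 0.22 and Cast, the calpain inhibitor gene, -0.33 ± 0.25. Cytohesins, ARF GTPases and their other exchange factors (17 tested of 17) had a median of -0.08, with 1 higher and 2 lower at an unadjusted p below 0.05, and DESeq2 called 2 lower. Psd4, an exchange factor for ARF6, had 111 and 134 CPM in the KO libraries, against 252 and 211 CPM in the control libraries (-0.91 ± 0.23), and Cytip, a cytohesin-binding protein gene, had -0.08 ± 0.25. Elfn1, the metabotropic glutamate receptor genes that ELFN proteins bind and the catalytic subunits of protein phosphatase 1 (8 tested of 8) had a median of -0.21. Of these, 0 were higher and 1 lower at an unadjusted p below 0.05, and DESeq2 called 0. The phosphatase genes Ppp1ca and Ppp1cb had 0.08 ± 0.21 and 0.03 ± 0.22.

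Pgpep1, the gene of pyroglutamyl peptidase I itself, had 15.5 and 12.8 CPM in the KO libraries, against 18.5 and 14.0 CPM in the control libraries (-0.19 ± 0.36), and Qpctl, a glutaminyl cyclase gene, had 0.34 ± 0.46. That list (3 tested of 4) had a median of 0.14, with 0 at an unadjusted p below 0.05, and DESeq2 called 0. Of 15 symbols of the very large GTPase family listed, 6 were counted and Gm1966 alone was tested. Interferon-induced genes (29 tested of 30) had a median of 0.44, with 22 values above 0 and 7 below, and with 5 higher and 1 lower at an unadjusted p below 0.05, and DESeq2 called 2 higher. The most abundant of them, Ly6e and Gbp4, were both among the 7 below 0, unlike most of the list. They had -0.55 ± 0.23 and -0.10 ± 0.33 (edgeR, adjusted p = 0.335 and 0.943).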

How the data were processed

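The 9 genes, their loci and the gene lists were chosen with earlier results of these data known. The authors deposited raw counts per gene symbol, 1 file per library, from a HISAT2 alignment per the file headers. Build mm10 and the tools HISAT2 2.2.1, featureCounts 2.0.8, cutadapt 4.0 and edgeR 3.36.0 come from the submitters' processing notes, which give them no role or order. The annotation, the strand setting and the handling of reads with several matches were not given in the sources used here. Libraries were made from 10 ng of RNA with a SMART-seq kit, per the labels' protocols, which name no molecular identifiers, so counting intervals and floors cover counting error only. A floor of 3 counts equals 0.0861 and 0.0843 CPM in KO 1 and KO 2, and 0.252 and 0.0865 CPM in control 1 and control 2.

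The deposited counts were fitted with edgeR 4.0.16 (R 4.3.3). The package's filterByExpr (minimum count 10, minimum total 15) left 20389 genes, scaled by TMM. The quasi-likelihood test had no term but genotype. Its two-sided p-values were Benjamini-Hochberg adjusted over those genes, with calls at 0.05. The standard error is the log2 fold change over the square root of F. Alternatives were DESeq2 1.42.0, other scalings and filters, each library left out, and replicate number as a block. The test was checked on simulated counts. Named were the 9 genes, flanking genes (mostly those at 5 CPM or more in a genotype), called or most abundant members of each list, and the nearest genes by pattern. Of the flanking genes, 1 that this rule names is not reported here. The planned search of gene descriptions for further very large GTPase genes was not run, since no description was at hand. Spans are RefSeq's on GRCm38.p6; strand, exons and transcripts are GENCODE M21's.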

Additional observations from a re-analysis of the deposited data

How the results depend on the processing

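The log2 fold changes of the 9 genes kept their sign in all 10 alternatives, but nothing is read from this, since the genes were chosen as higher. The number of genes called, 92, was 947 with DESeq2, 920 with no filter on low counts, 228 with a filter at 5 CPM in 2 libraries, and 9 to 619 with a library left out. Of the 9 genes, 0 to 9 were called with a library left out, with 0 when KO replicate 1 was left out and 3 when KO replicate 2 was, and scaling by library totals gave 8. The flanking genes called, 1, numbered 4, 4 and 2 with DESeq2, no filter and the 5 CPM filter, and 0 to 4 with a library left out. Calls over the related lists, 0, numbered 5, 6 and 1, and 0 to 3. The labels do not say that a replicate number marks a shared animal, litter or batch, so the numbers were not taken as pairs. The correlation of same-numbered deviations was 0.299 over 10790 genes, and with 2 pairs a shared batch was not tested. With the replicate block, 1599 genes, 9 of the 9, 5 flanking genes and 8 list genes were called. Among the genes named and followed through the alternatives, sign changes occurred in the uncalled Aqp11, Ppp1cb, Cytip, Gbp4 and Pgpep1. Aqp11 had 0.03 with library totals only, 0.0033 with no filter and -0.48 to 0.36 with a library left out, and Ppp1cb -0.05 with the 5 CPM filter and -0.09 to 0.15 with a library left out. With a library left out, Cytip had -0.33 to 0.22, Gbp4 -0.66 to 0.34 and Pgpep1 -0.38 to 0.02. In control 1, the shallowest library, Gm4759 rested on 9 counts (0.757 CPM, against a floor of 0.252 CPM). The cause of these changes was not tested.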

Other observations

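Over 18694 pairs of adjacent tested genes with a RefSeq place, 7 had both genes called higher in the KO, 2 had both called lower, and 0 had 1 of each. Of 18714 tested genes with a RefSeq place, 53 were called higher. Of the 7 pairs, 4 were pairs among the 9 genes, and Gm16158 with Arrdc4 was another. The 9 genes were chosen as neighbours that rise, so nothing is read from the count of 7. In the other two, the spans overlap. Nrp1, the neuropilin 1 receptor gene on chromosome 8, had a log2 fold change of 2.27 and Gm32643 had 2.68. Chdh, the choline dehydrogenase gene on chromosome 14, had 1.53 and Gm35449 had 2.2. The pairs called lower were both on chromosome 13. They were F13a1, which encodes a subunit of a clotting factor, at -2.59 with the overlapping Gm30489 at -2.79, and Gm31803 at -4.53 with Gm32004 at -7.88.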
